A study of Mus musculus with 6 samples.

Results

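The cathepsins and legumain are the proteases with which a macrophage digests what it takes up, and 10 of their genes were followed here in macrophages of the mouse mammary gland. The genes were *Ctsa*, *Ctsb*, *Ctsc*, *Ctsd*, *Ctsh*, *Ctsk*, *Ctsl*, *Ctss*, *Ctsz* and *Lgmn*, taken by symbol from a count table of 24061 genes. Gene expression was measured by bulk RNA-seq in CD45+CD11b+F4/80+ cells that had been sorted by flow cytometry into a Lyve-1+ and a Lyve-1- subset, 3 libraries each. Lyve-1 is a surface receptor for hyaluronan, a polysaccharide of the extracellular matrix. All animals were FVB/N mice with no other treatment or allele named in the labels, and the inguinal lymph nodes had been taken out before the glands were digested. Each library held the RNA of cells pooled from the #4 mammary glands of 4 mice, so animals could not be compared within a pool. Replicate 1 of each subset came from 6-week-old mice, and replicates 2 and 3 came from 10-week-old mice. With 1 library of each subset at 6 weeks, age and the particular pool cannot be told apart.

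Most cathepsins are made as inactive precursors, carried to endosomes and lysosomes by mannose 6-phosphate receptors, and activated there at low pH. Cathepsins B, C, H, K, L, S and Z are cysteine proteases of the papain family, cathepsin D is an aspartic protease, and cathepsin A is a serine carboxypeptidase. Legumain is an asparaginyl endopeptidase that also trims other cathepsins to their mature forms. In macrophages these enzymes break down engulfed proteins and, when secreted, components of the matrix. Cathepsin S and cathepsin L are best known for cutting the invariant chain of MHC class II, and cathepsin K for the breakdown of collagen by osteoclasts.

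The libraries ran from 6478007 to 21406839 counts, and the shallowest were replicate 3 of each subset. *Lyve1*, the check of the labels, had 17, 75 and 51 counts in Lyve-1- replicates 1, 2 and 3 and 30871, 16441 and 4735 counts in Lyve-1+ replicates 1, 2 and 3. *Emr1*, the symbol under which the table lists the gene of F4/80, was at 390, 272 and 293 CPM in Lyve-1- and 339, 239 and 201 CPM in Lyve-1+ replicates 1, 2 and 3, where CPM are counts per 1000000 after TMM normalization, and *Itgam*, the gene of CD11b, was between 729 and 1232 CPM in all 6 libraries. Both sorting markers were therefore present in every library. Olfactory receptor genes, 1122 in the table, were used as a measure of background. Of these, 652 had a count in replicate 3 of the Lyve-1- subset and 370 in replicate 1 of the Lyve-1+ subset. The other 4 libraries had 4 to 134. The fits of *Ctsl*, *Ctsb*, *Ctsd* and *Lgmn* are also given without those 2 libraries. The density of counts over olfactory receptor genes, taken as a background per base, came to at most 3.55% of the counts of any of the 10 genes, a value reached by *Ctsl* in Lyve-1- replicate 3.

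In GENCODE M21 on GRCm38 (mm10) the 10 genes lie on 7 chromosomes. *Ctsk* (chr3:95499256-95509362) and *Ctss* (chr3:95526786-95556403) are neighbours on the plus strand, 17423 bp apart with 0 genes between them. *Ctsl* spans chr13:64359337-64370890 on the minus strand, *Ctsb* chr14:63122462-63145923 on the plus strand, *Ctsd* chr7:142375911-142388038 on the minus strand and *Lgmn* chr12:102394084-102439813 on the minus strand. *Ctsa*, *Ctsb* and *Ctsz* share exonic bases with counted genes on the opposite strand (*Pltp* and *Neurl2*, *Fdft1*, and *Nelfcd*). The strand setting of the counting is not given in the sources used here, so reads from the shared bases cannot be told apart. Beside 2447 and 5190 CPM of *Ctsb* in replicate 1 of Lyve-1- and Lyve-1+, *Fdft1* was at 46.9 and 30.02 CPM. *Pltp* was nearer to *Ctsa* in level, at 216, 189 and 207 CPM in Lyve-1- and 658, 293 and 379 CPM in Lyve-1+ replicates 1, 2 and 3, and its part in the *Ctsa* counts was not tested.

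RefSeq promoters (GRCm38.p6) were at hand for 8 of the 10 genes, with 10 start sites, but not for *Ctsb* and *Ctsh*. The 250 bases before each start were searched on both strands for CACGTG, the palindromic E-box core bound by TFEB and its relatives, which drive lysosomal genes. CACGTG was found before *Ctsa*, *Ctsd*, *Ctsl* and *Lgmn*, and in 6.02% of the 32851 promoters of the table. *Ctsa* and *Lgmn* each have a further, earlier start in the table, and neither of these earlier windows held it. The longer TCACGTG, which contains that core, occurred before 3 of these genes (*Ctsa*, *Ctsd* and *Lgmn*) and in 3.13% of all promoters. *Ctsc*, *Ctsk*, *Ctss* and *Ctsz* had no CACGTG in these windows. The 30 bases around each core are shown, with the core in capitals and position counted back from the RefSeq start.
*Ctsl* (chr13:64370739-64370768, minus strand, GRCm38.p6, core from -236): ggcgttagaagcCACGTGctgatctaaatt
*Ctsd* (chr7:142387908-142387937, minus strand, core from -98): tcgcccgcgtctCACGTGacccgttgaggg
*Ctsd* (chr7:142388048-142388077, minus strand, core from -245): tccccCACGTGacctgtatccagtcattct
*Lgmn* (chr12:102439124-102439153, minus strand, core from -49): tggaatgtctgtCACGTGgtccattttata
*Ctsa* (chr2:164833743-164833772, plus strand, core from -12): gaacaatgagcaaactgtCACGTGatgcag

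By GENCODE the cores of *Ctsl* and *Ctsa* and the nearer one of *Ctsd* fall in exons of transcripts with an earlier start, the core of *Lgmn* falls in an intron, and the farther core of *Ctsd* lies upstream of the gene. The interferon-type element GAAANNGAA was found before *Ctss* alone among the 8 genes (7.13% of all promoters), and the PU.1-type element GAGGAAGT before *Ctsc* alone (2.44%). Both are shown in GRCm38.p6 with the element in capitals.
*Ctss* (chr3:95526754-95526783, plus strand, element from -21): agtctttaaatGAAACCGAAatgaaagttc
*Ctsc* (chr7:88277923-88277952, plus strand, element on the opposite strand from -151): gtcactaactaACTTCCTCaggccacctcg

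A match is a run of letters in these windows, and binding was not measured.

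To ask whether the protease genes differ between the subsets, Lyve-1+ libraries were compared with Lyve-1- libraries by edgeR's quasi-likelihood test over the 13348 genes that passed the filter on low counts, all 10 members among them. *Ctsl* was called higher in Lyve-1+ at an adjusted p under 0.05, and it was the 1 member called, in a comparison that called 0.45% of all genes tested as higher. No member was called lower, and 0.18% of all genes were. Fitted log2 fold changes were above 0 for 8 members and below 0 for 2, with a median of 0.65 beside -0.01 over all genes tested. That median lies between *Ctsc* (0.52) and *Ctsk* (0.77, SE 1.13). It was 0.50 with at least 10 counts required in every library, a fit without *Ctsk*. Stricter limits followed those of the study's heat map: adjusted p under 0.01 and an absolute log2 fold change between 1 and 10. The study names a fold change without its scale, which was read here as log2. In the edgeR fit, 0 members and 0.112% of all genes met these limits. DESeq2, the tool of the study, gave *Ctsl* a log2 fold change of 1.503 (adjusted p = 0.000538), which lay within them. The share of all genes within them was not computed for DESeq2. At an unadjusted p under 0.05, 4 members were higher (4.2% of all genes) and 0 lower. In bulk samples, fewer cells that express a gene and less RNA per cell cannot be told apart.

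**Figure D1:**
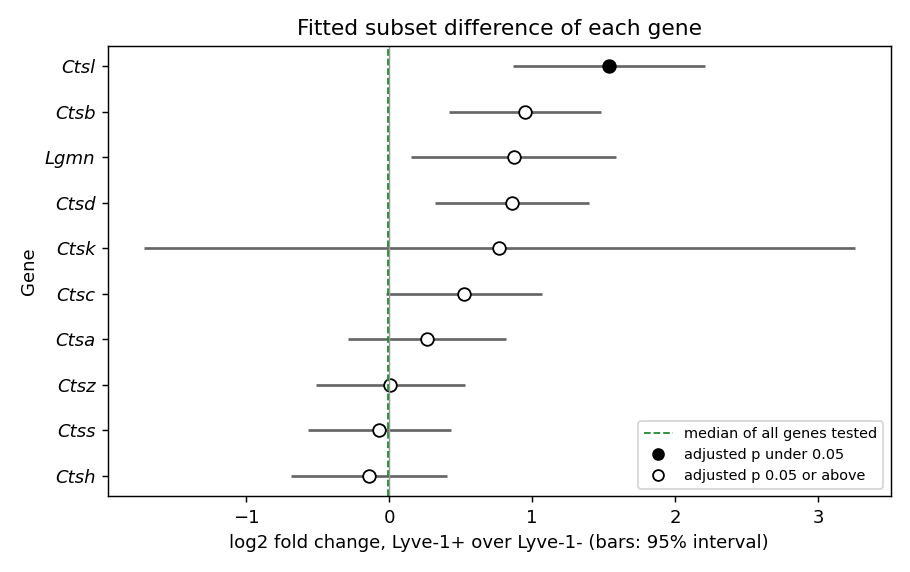
Fitted log2 fold change (x axis, Lyve-1+ over Lyve-1-) of each of the 10 genes (y axis), with bars for the 95% interval, filled points for an adjusted p under 0.05 and a dashed line at the median of all genes tested (-0.01). *Ctsl* sits highest at 1.54, *Ctsb*, *Lgmn* and *Ctsd* lie between 0.86 and 0.95, and *Ctsk* has the widest interval.

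*Ctsl*, the gene of cathepsin L, was at 115, 160 and 70.4 CPM in Lyve-1- replicates 1, 2 and 3 and at 343, 359 and 301 CPM in Lyve-1+ replicates 1, 2 and 3. All Lyve-1+ libraries lay above all Lyve-1- libraries, and the Lyve-1- libraries spread more than the Lyve-1+ libraries. The difference was 2.90-fold, a log2 fold change of 1.54 ± 0.31 (SE, 3 against 3 libraries, edgeR adjusted p = 0.0396), with a 95% interval of 0.87 to 2.21. DESeq2 gave 1.503 with an adjusted p of 0.000538. Leaving out Lyve-1- replicate 3 gave 1.28 (adjusted p = 0.179) and leaving out Lyve-1+ replicate 1 gave 1.53 (adjusted p = 0.0660). The call was lost in both fits, where the share of all genes called higher fell from 0.45% to 0.125% and 0.246%. Without both libraries, the log2 fold change was 1.24 and the adjusted p was 0.503, with 0.0243% of all genes called higher. In the 10-week libraries alone it was 1.496, with an adjusted p of 0.315.

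*Ctsb*, the gene of cathepsin B, was the most abundant member by counts. It was at 2447, 3000 and 1634 CPM in Lyve-1- replicates 1, 2 and 3 and at 5190, 4566 and 3899 CPM in the Lyve-1+ replicates. The 2 subsets did not overlap. The log2 fold change was 0.95 ± 0.25 (SE, 95% interval 0.42 to 1.48), which did not pass the threshold in edgeR (adjusted p = 0.141) and passed it in DESeq2 (adjusted p = 0.00859). Without Lyve-1- replicate 3 it was 0.74 (edgeR adjusted p = 0.449). Without both that library and Lyve-1+ replicate 1 it was 0.61 (edgeR adjusted p = 0.906).

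*Ctsd*, the gene of the aspartic protease cathepsin D, followed the same order of subsets. It was at 675, 679 and 500.5 CPM in Lyve-1- replicates 1, 2 and 3 and at 1176, 1329 and 857 CPM in the Lyve-1+ replicates, again with no overlap. Its log2 fold change of 0.86 ± 0.25 (SE, 95% interval 0.32 to 1.40) had an adjusted p of 0.216 in edgeR and 0.0250 in DESeq2. DESeq2 thus called 3 members higher and 0 lower, where it called 1.65% of the genes it gave an adjusted p as higher and 1.37% as lower. Without Lyve-1- replicate 3 the log2 fold change of *Ctsd* was 0.73 (edgeR adjusted p = 0.551). Without both that library and Lyve-1+ replicate 1 it was 0.67 (edgeR adjusted p = 0.921).

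*Ctsc*, the gene of cathepsin C, which activates serine proteases of granules, was the other member whose subsets stood apart. Its levels were 256, 312 and 284 CPM in Lyve-1- replicates 1, 2 and 3 and 476, 428 and 320.3 CPM in the Lyve-1+ replicates. The log2 fold change was 0.52 ± 0.26 (SE, adjusted p = 0.687), and its 95% interval of -0.02 to 1.07 included 0. In all, 4 members (*Ctsb*, *Ctsc*, *Ctsd* and *Ctsl*) lay higher in each Lyve-1+ library than in any Lyve-1- library and 0 had the reverse order. Over all genes tested the shares were 7.82% and 6.5%.

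*Lgmn*, the gene of legumain, was at 408, 673 and 385 CPM in Lyve-1- replicates 1, 2 and 3 and at 1349, 791 and 542 CPM in the Lyve-1+ replicates. The subsets overlapped, since Lyve-1+ replicate 3 lay below Lyve-1- replicate 2. The fitted log2 fold change was 0.87 ± 0.33 (SE, adjusted p = 0.459 in edgeR and 0.174 in DESeq2). Lyve-1+ replicate 1, from 6-week-old mice, was far above the other libraries. Without it the log2 fold change was 0.46, and in the 10-week libraries alone it was 0.32.

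**Figure D2:**
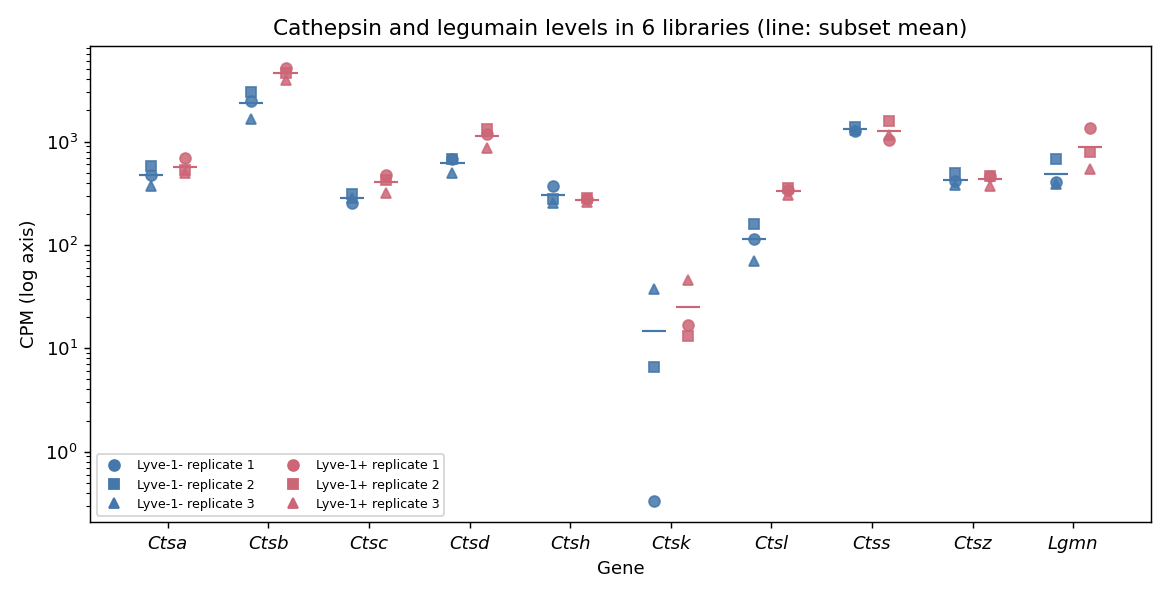
CPM on a log axis (y) of each of the 10 genes (x) in the 6 libraries, blue for Lyve-1- and red for Lyve-1+, with a marker shape for each replicate and a line at each subset mean. The subsets stand apart for *Ctsb*, *Ctsc*, *Ctsd* and *Ctsl*, and *Ctsk* runs from 0.336 to 45.6 CPM.

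*Ctss*, *Ctsz*, *Ctsh* and *Ctsa* had the 4 fitted differences nearest to 0. *Ctss*, the gene of cathepsin S, was at 1272, 1396 and 1284 CPM in Lyve-1- replicates 1, 2 and 3 and at 1026, 1584 and 1163 CPM in the Lyve-1+ replicates. The Lyve-1- levels all lay within the range of the Lyve-1+ levels, and the log2 fold change of -0.07 had a 95% interval of -0.57 to 0.44. *Ctsz*, the gene of the carboxypeptidase cathepsin Z, was at 411, 495 and 380 CPM in Lyve-1- and 463, 462 and 369 CPM in Lyve-1+ replicates 1, 2 and 3, and its log2 fold change of 0.01 had an interval of -0.51 to 0.53.

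*Ctsh*, the gene of the aminopeptidase cathepsin H, was at 372, 279 and 257 CPM in Lyve-1- replicates 1, 2 and 3 and at 280, 285 and 258 CPM in the Lyve-1+ replicates. *Ctsa*, the gene of the carboxypeptidase that also protects lysosomal neuraminidase and beta-galactosidase, was at 471, 577 and 374 CPM in Lyve-1- and at 687, 530 and 494 CPM in Lyve-1+ replicates 1, 2 and 3. The subsets overlapped for both genes. The 95% intervals of the log2 fold change were -0.69 to 0.41 for *Ctsh* and -0.28 to 0.82 for *Ctsa*. For *Ctsa*, *Ctsh*, *Ctss* and *Ctsz* the upper ends of these intervals were 1.33-fold to 1.76-fold. The lower ends were 0.62-fold (*Ctsh*) to 0.82-fold (*Ctsa*), so both rises and falls remain possible. The sign of the value depended on the setting for each of them: it turned for *Ctsz* under DESeq2 size factors (-0.025) and total library size (-0.056), for *Ctsh* and *Ctss* in the 10-week libraries alone (0.013 and 0.028), and for *Ctsa* without both libraries rich in olfactory receptor counts (-0.055).

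*Ctsk*, the gene of the collagenolytic cathepsin K, was the least abundant member and the most uneven. It had 4, 74 and 258 counts in Lyve-1- replicates 1, 2 and 3, or 0.336, 6.57 and 37.6 CPM, and 221, 277 and 362 counts in the Lyve-1+ replicates, or 16.8, 13.3 and 45.6 CPM. Replicate 3 was highest in both subsets, and Lyve-1- replicate 1 was almost without counts. An exact 95% Poisson interval, which covers counting error only, put that library between 0.0916 and 0.861 CPM, below the 5.16 CPM at the lower end for Lyve-1- replicate 2. The log2 fold change between subsets was 0.77 ± 1.13 (SE, adjusted p = 1.00), and leaving out Lyve-1- replicate 3 or Lyve-1+ replicate 3 moved it to 2.86 or 0.03. It was 0.20 and 0.42 when replicate 1 or 2 of the Lyve-1- subset was left out, and 1.69 with age as a covariate.

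*Ctsk* is made by osteoclasts and by fibroblasts as well as by some macrophages, so markers of both were read beside it. *Dcstamp*, listed here as an osteoclast marker, was at 95.9, 105 and 39.1 CPM in Lyve-1- and 2.97, 13.6 and 7.94 CPM in Lyve-1+ replicates 1, 2 and 3. It was called lower in Lyve-1+ (log2 fold change -3.29, edgeR adjusted p = 0.0254), and which cells it came from was not tested. *Ocstamp* had 126, 2 and 51 counts in Lyve-1- and 3, 25 and 0 counts in Lyve-1+, so both genes had more counts than *Ctsk* in Lyve-1- replicate 1. *Acp5* was at 41.7, 45.8 and 76.8 CPM in Lyve-1- and 22.8, 38.5 and 57.2 CPM in Lyve-1+, highest in replicate 3 of each subset as *Ctsk* was. *Calcr* had 42 counts in Lyve-1- replicate 3, the library with the most olfactory receptor genes detected, and 0 in the others. The 4 osteoclast genes thus did not share 1 order over the libraries. The summed level of the 10 fibroblast markers was 1230, 1189 and 1032 CPM in Lyve-1- replicates 1, 2 and 3 and 2426, 1821 and 7174 CPM in the Lyve-1+ replicates. *Ctsk* was highest in Lyve-1+ replicate 3 and next in Lyve-1- replicate 3, whose fibroblast sums were 7174 and 1032 CPM. The Lyve-1- sums differed little from each other. The part of these cells in the *Ctsk* level was not tested.

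Levels of different genes were compared per length, as CPM per kb of the best-supported CCDS transcript. In Lyve-1- cells *Ctss* came first at 972 ± 50.5 CPM per kb (SD, n = 3), above *Ctsb* at 498 ± 145 with no overlap of their ranges. *Ctsz*, *Ctsd*, *Lgmn*, *Ctsh* and *Ctsa* followed between 298 and 187 CPM per kb, and no neighbours in that order were apart. *Ctsc* (88.2 ± 8.79) and *Ctsl* (58.4 ± 22.8) came below them and overlapped each other, and *Ctsk* was last at 9.82 ± 13.2.

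In Lyve-1+ cells the upper part of the order was different. *Ctsb* (960 ± 136 CPM per kb, SD, n = 3) and *Ctss* (928 ± 215) overlapped at the top. *Ctsd* (527 ± 113) and *Lgmn* (449 ± 208) came next and overlapped, followed by *Ctsz* (299 ± 37.7) and *Ctsa* (225 ± 40.6). *Ctsl* (169.6 ± 15.0) was level with *Ctsh* (169.8 ± 8.81) and above *Ctsc* (127 ± 24.7), and *Ctsk* was again last (16.7 ± 11.7). The place of *Ctsl* depends on the transcript length used: over all annotated exons, 6489 bp in place of 1971 bp, it fell below *Ctsh* and *Ctsc* in Lyve-1+ as well, and *Ctss* then led *Ctsb* in Lyve-1+ with an overlap. This other length was chosen after the data were seen.

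The 10 genes together took 0.633%, 0.760% and 0.551% of all counts in Lyve-1- replicates 1, 2 and 3 and 1.06%, 1.01% and 0.812% in the Lyve-1+ replicates, so the subsets did not overlap in the sum. Without *Ctsb* the shares were 0.392%, 0.459% and 0.378% in Lyve-1- and 0.560%, 0.564% and 0.428% in Lyve-1+, and the subsets overlapped. *Ctsb* made up 36.3% ± 4.37 of the 10 genes' counts in Lyve-1- (SD, n = 3) and 46.2% ± 1.78 in Lyve-1+. *Ctss* made up 21.0% ± 3.28 and 12.9% ± 3.16, and *Ctsl* 1.75% ± 0.382 and 3.41% ± 0.273.

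**Figure D3:**
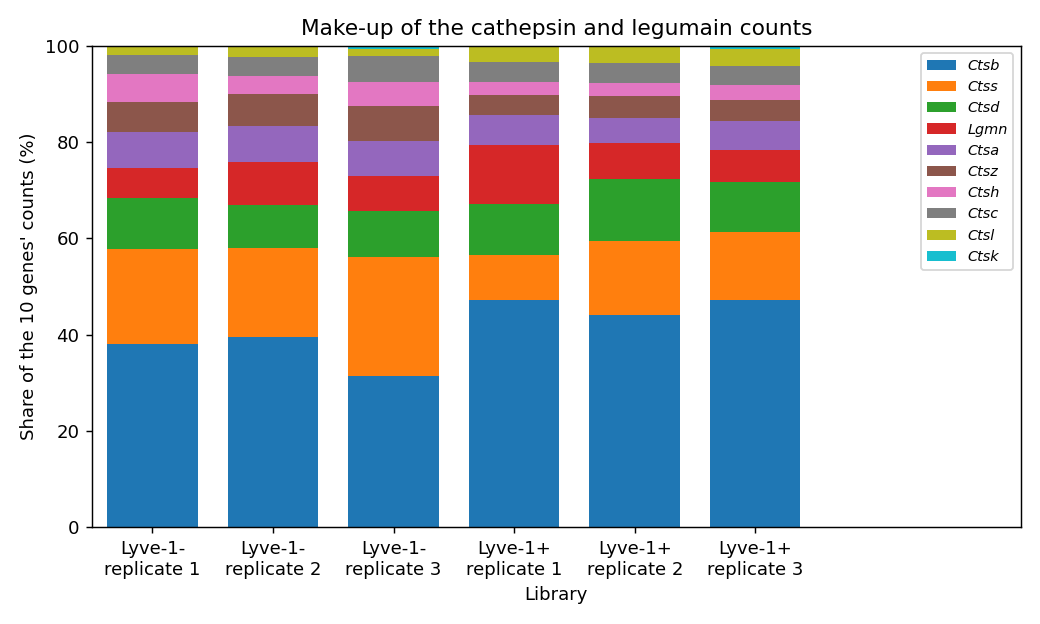
Share (y axis, %) of each gene in the summed counts of the 10 genes, 1 bar for each of the 6 libraries (x axis). *Ctsb* takes 31.4% to 39.6% in Lyve-1- and 44.1% to 47.3% in Lyve-1+, and *Ctss* takes 18.4% to 24.7% and 9.32% to 15.3%.

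Ratios within a library do not depend on how the libraries are scaled, and a shift between the subsets in such a ratio does not depend on gene length. The ratio of *Ctsl* to *Ctss* counts was 0.0905, 0.115 and 0.0548 in Lyve-1- replicates 1, 2 and 3 and 0.334, 0.227 and 0.259 in the Lyve-1+ replicates, a mean shift of 1.70 on the log2 scale. The ratio of *Ctsb* to *Ctss* was 1.92, 2.15 and 1.27 in Lyve-1- and 5.06, 2.88 and 3.35 in Lyve-1+, a mean shift of 1.07. *Ctsd* relative to *Ctss* shifted by 0.94 and *Ctsl* relative to *Ctsb* by 0.63. The subsets were apart in all 4 of these ratios. *Lgmn* relative to *Ctss* shifted by 0.91 with an overlap of the subsets. These ratios are given as a description, with no test.

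The call of *Ctsl* and the values of its nearest followers under each setting of the fit are plotted together. *Ctsl* passed the threshold in 13 of 17 alternative settings, *Ctsb* in 4, *Ctsd* in 2 and *Lgmn* in 0, and all 4 genes stayed above 0 in every one of the 17.

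**Figure D4:**
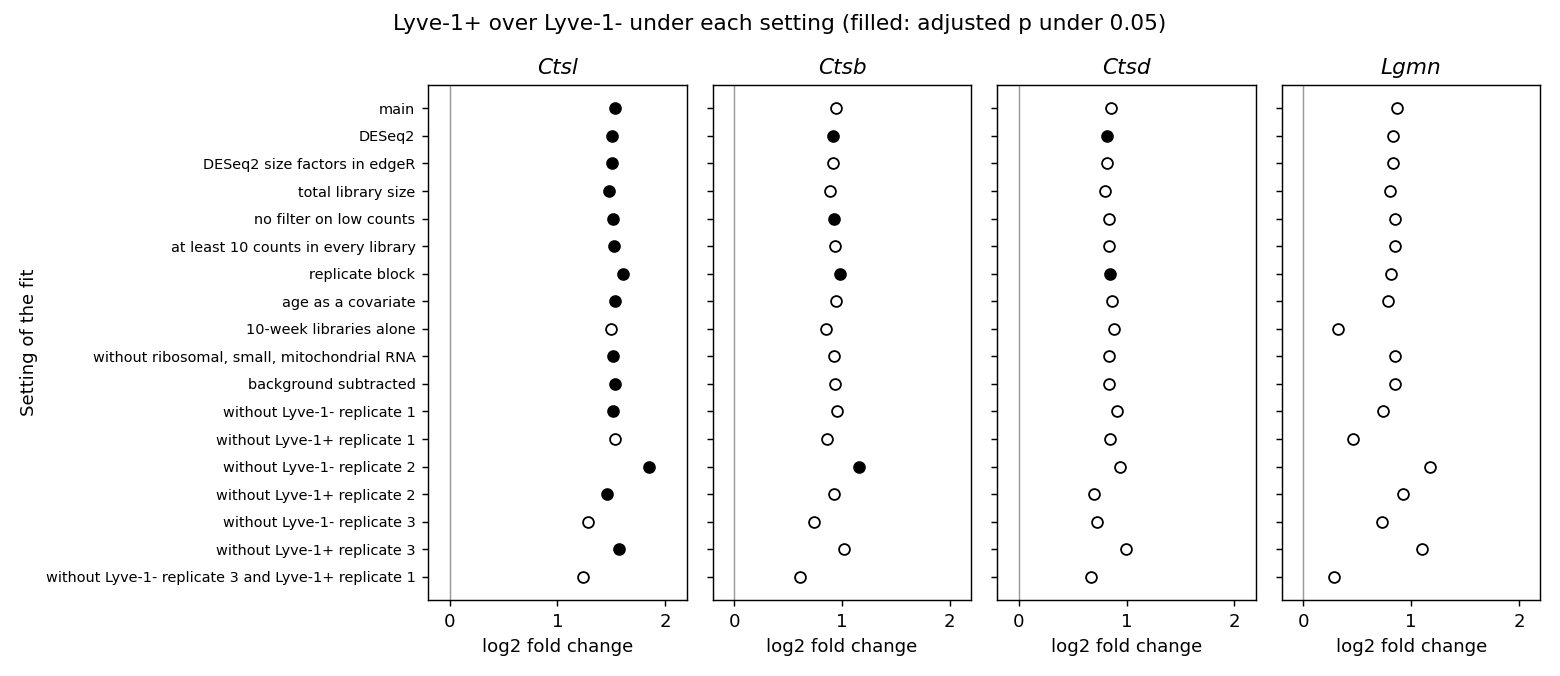
Log2 fold change (x axes, Lyve-1+ over Lyve-1-) of *Ctsl*, *Ctsb*, *Ctsd* and *Lgmn* under the main fit and 17 alternatives (y axis), with filled points for an adjusted p under 0.05. *Ctsl* runs from 1.24 to 1.85, *Ctsb* from 0.61 to 1.16, *Ctsd* from 0.67 to 0.99 and *Lgmn* from 0.28 to 1.18.

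To compare the ages, libraries of 10-week-old mice were set against those of 6-week-old mice in a model that also held the subset. No member was called (0 at an unadjusted p under 0.05 and 0 by DESeq2), where 0.0225% of all genes were called, 3.33% had an unadjusted p under 0.05 and 0.266% were called by DESeq2. *Ctsk* had the largest fitted difference, a log2 fold change of 2.45 ± 1.37 (SE, adjusted p = 1.00), where Lyve-1- replicate 1, from 6-week-old mice, held 4 counts. Among the others the values ran from -0.38 for *Lgmn* to 0.24 for *Ctss*.

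The interaction of age and subset asks whether the subset difference of a gene changed with age. No member was called in edgeR or in DESeq2, where 0.00749% and 0.374% of all genes were. Of the 10 members, 2 had an unadjusted p under 0.05 (4.59% of all genes): *Ctsk*, with an interaction of -5.19 ± 1.91 on the log2 scale (SE, adjusted p = 0.957), and *Lgmn*, with -1.39 ± 0.58 (adjusted p = 0.976). Both had a larger Lyve-1+ over Lyve-1- difference in the 6-week libraries, which are 1 of each subset. For *Ctsl* the interaction was -0.06 ± 0.68.

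Of 14 other cathepsin genes of the mouse, 4 passed the filter on low counts and 0 were called in either direction by edgeR or DESeq2 or had an unadjusted p under 0.05. *Ctso* had the largest fitted rise, at 38.1, 40.1 and 38.8 CPM in Lyve-1- and 43.7, 44.6 and 41.6 CPM in Lyve-1+ replicates 1, 2 and 3 (log2 fold change 0.15). *Ctsf* had the largest fitted fall, at 19.6, 7.29 and 14.7 CPM in Lyve-1- and 5.03, 2.11 and 0 CPM in Lyve-1+, where 0 counts allow up to 0.378 CPM (log2 fold change -2.53, adjusted p = 0.868). *Ctse* was at 127, 20.8 and 93.0 CPM in Lyve-1- and 15.8, 30.1 and 88.6 CPM in Lyve-1+ replicates 1, 2 and 3, and *Ctsw* was at 15.9, 23.2 and 9.04 CPM in Lyve-1- and 0.305, 7.76 and 19.3 CPM in Lyve-1+. The subsets overlapped for both, and their log2 fold changes of -0.84 and -0.82 moved to -1.83 and -2.01 without the third Lyve-1+ library. The cathepsins of rodent placenta (*Ctsj*, *Ctsm*, *Ctsq*, *Ctsr*, *Cts3*, *Cts6*, *Cts7* and *Cts8*), *Ctsll3* and the neutrophil gene *Ctsg* did not pass the filter.

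Of 11 genes of inhibitors, 6 were tested and 0 were called by edgeR or DESeq2. At an unadjusted p under 0.05, 1 passed, as did 7.69% of all genes in either direction. *Cst3*, the gene of the secreted inhibitor cystatin C, was at 672, 489 and 558 CPM in Lyve-1- and 813, 568 and 608 CPM in Lyve-1+ replicates 1, 2 and 3 (log2 fold change 0.21, adjusted p = 1.00). *Cstb*, the gene of the cytosolic cystatin B, was at 55.8 to 60.1 CPM in Lyve-1- and 69.3 to 109 CPM in Lyve-1+, with no overlap (0.61, adjusted p = 0.797). The largest fitted rise was that of *Ctla2b*, related to the propeptide of cathepsin L (2.97, adjusted p = 0.367), and the largest fall that of the serpin gene *Serpina3g* (-1.81, adjusted p = 0.744). The ratio of *Ctsl* to *Cst3* counts was 0.171, 0.327 and 0.126 in Lyve-1- and 0.422, 0.632 and 0.495 in Lyve-1+ replicates 1, 2 and 3, apart between the subsets.

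All 17 genes of enzyme sorting and lysosome biogenesis were tested and 0 were called by edgeR in either direction. At an unadjusted p under 0.05, 3 were higher and 1 lower. Of all genes, 4.2% were higher at that threshold and 7.69% passed it in either direction. DESeq2 called 1 of the 17 higher, where it called 1.65% of the genes it gave an adjusted p as higher. The median log2 fold change of the 17 genes was 0.10, beside 0.65 for the 10 proteases and 0.50 in the fit without *Ctsk*. *Grn*, the gene of progranulin, whose granulin fragments are found in lysosomes and cut by cathepsins, had the largest fitted rise. It was at 405, 556 and 331 CPM in Lyve-1- replicates 1, 2 and 3 and at 1574, 913 and 807 CPM in the Lyve-1+ replicates, with no overlap. The log2 fold change was 1.35 ± 0.30 (SE), with an adjusted p of 0.0611 in edgeR and 0.000624 in DESeq2.

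*Tfeb*, the gene of the factor that drives many lysosomal genes, had the largest fitted fall, at 25.7, 35.5 and 20.4 CPM in Lyve-1- and 12.6, 3.98 and 7.18 CPM in Lyve-1+ replicates 1, 2 and 3 (log2 fold change -1.78, adjusted p = 0.506). The receptor genes *M6pr* and *Igf2r*, which carry the enzymes to lysosomes, gave 0.03 and 0.17. *Lamp1*, a protein of the lysosomal membrane, was at 659 to 903 CPM in Lyve-1- and 979 to 1315 CPM in Lyve-1+ (0.51, adjusted p = 0.641). *Psap*, the gene of prosaposin and as abundant as the leading cathepsins, gave -0.14 (adjusted p = 1.00).

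Of 9 genes of partners and substrates, all were tested and 0 were called by edgeR. At an unadjusted p under 0.05, 0 were higher and 3 lower, where 7.69% of all genes passed in either direction. DESeq2 called 1 lower, where it called 1.37% of the genes it gave an adjusted p as lower. *Cd74*, the gene of the invariant chain that cathepsins S and L cut, was at 9340, 8421 and 8973 CPM in Lyve-1- and 2265, 3696 and 5376 CPM in Lyve-1+ replicates 1, 2 and 3, with no overlap. Its log2 fold change was -1.24 ± 0.27 (SE), with an adjusted p of 0.0589 in edgeR and 0.000528 in DESeq2. *H2-DMb1*, which helps to load peptides on MHC class II, had the largest fitted fall (-1.32, adjusted p = 0.195). *Tlr7*, an endosomal receptor that is cut by cathepsins and legumain, had the largest fitted rise (0.61, adjusted p = 0.871). *Neu1* and *Glb1*, the enzymes that bind cathepsin A, gave 0.04 and 0.57.

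The genes whose pattern over the 6 libraries was most like that of *Ctsl* were sought among 8477 genes with a mean of at least 10 CPM. They were *Ddx60*, *Ddx58*, *Irgm2*, *Tlr4* and *Stk3*, with Pearson's r of log2 CPM between 0.985 and 0.991 and Spearman's rho between 0.943 and 1. Without Lyve-1- replicates 1 and 3, the libraries farthest from the median of *Ctsl*, r was 0.948 to 0.983. *Ddx60*, a gene induced by interferon, was at 43.9, 87.7 and 27.7 CPM in Lyve-1- and 281, 220 and 212 CPM in Lyve-1+ replicates 1, 2 and 3 (log2 fold change 2.16, adjusted p = 0.0245).

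Among the members, *Ctsb* (r = 0.984) and *Ctsd* (r = 0.940) were most like *Ctsl*, and *Ctss* (r = -0.11) and *Ctsh* (r = -0.18) least. The 6 points of each value share their libraries, and they hold the subset difference itself. With the subset means taken out, r was 0.952 for *Ctsb*, 0.820 for *Ctsa*, 0.807 for *Ctsz*, 0.720 for *Ctsd* and 0.579 for *Lgmn*, between 0.261 and 0.362 for *Ctss*, *Ctsc* and *Ctsh*, -0.53 for *Ctsk* and -0.07 for *Lyve1*. These values describe 6 libraries and carry no test.

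Markers of other cells moved between the subsets too, and their part in the protease levels was not tested. All 10 fibroblast markers had fitted log2 fold changes above 0 (median 1.45), and 0 were called by edgeR. DESeq2 called 3 higher, where it called 1.65% of the genes it gave an adjusted p as higher. Their sum was 2426, 1821 and 7174 CPM in Lyve-1+ replicates 1, 2 and 3 and 1032 to 1230 CPM in Lyve-1-. Leaving out Lyve-1+ replicate 3 therefore does not make the subsets alike in these markers. Without Lyve-1+ replicate 3 the log2 fold change was 1.58 for *Ctsl* (edgeR adjusted p = 0.0267) and 1.02 for *Ctsb* (edgeR adjusted p = 0.0972). It was 0.99 for *Ctsd* (edgeR adjusted p = 0.117) and 1.10 for *Lgmn* (edgeR adjusted p = 0.126). The 7 markers of conventional dendritic cells summed to 221, 645 and 706 CPM in Lyve-1- and 59.9, 156 and 223 CPM in Lyve-1+ replicates 1, 2 and 3, and 6 of the 7 were below 0.

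Of the 10 macrophage markers, 7 had fitted values above 0 (median 0.40), and *C1qa*, a complement gene, was called higher in Lyve-1+ (1.66, adjusted p = 0.0376). *Csf1r* and *Cd68* gave 0.78 and 0.71 and neither passed the threshold in edgeR (adjusted p = 0.280 and 0.418), while *Csf1r* passed it in DESeq2 (adjusted p = 0.0462). The 3 markers below 0 were *Ptprc*, the gene of CD45 (-0.62, adjusted p = 0.541), *Cd14* (-0.36) and *Emr1* (-0.29). *Ptprc* was at 1693, 1210 and 1309 CPM in Lyve-1- and 645, 966 and 1128 CPM in Lyve-1+ replicates 1, 2 and 3, with no overlap. All 7 epithelial markers tested were below 0 (median -1.30), and their sum was 461, 55.2 and 203 CPM in Lyve-1- and 104, 124 and 65.8 CPM in Lyve-1+ replicates 1, 2 and 3, with an overlap.

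Neutrophil markers summed to 30.1, 10.2 and 45.8 CPM in Lyve-1- and 42.7, 28.4 and 232 CPM in Lyve-1+ replicates 1, 2 and 3. Of the 3 tested, *S100a8* and *S100a9* were above 0 with no overlap of the subsets (2.81 and 2.76, adjusted p = 0.494 and 0.234 in edgeR, and 0.161 and 0.0152 in DESeq2), and *Retnlg* was below 0. Without Lyve-1+ replicate 3 the 2 values were 1.39 and 1.13. All 3 T cell markers tested were below 0 (median -0.91), with sums of 55.5, 59.0 and 79.7 CPM in Lyve-1- and 7.77, 36.1 and 53.3 CPM in Lyve-1+, apart between the subsets. All 4 B cell markers tested were above 0 (median 1.12), with sums from 3.02 to 29.6 CPM in Lyve-1- and from 10.1 to 84.2 CPM in Lyve-1+. In the neutrophil, T cell and B cell lists 0 markers were called by edgeR, and their part in the protease levels was not tested. The sums for lymphatic endothelium ran from 8.15 to 32.0 CPM. *Ccl21a* had 0 counts in all 6 libraries.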

How the data were processed

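RNA-seq was performed on 6 libraries of sorted macrophages (SMARTer Stranded Total RNA-seq Pico kit). The authors mapped the reads to mm10 with HISAT2 2.0.2, counted them per gene symbol with featureCounts 1.5.0 and deposited the counts without normalization. The gene annotation and the strand setting of the counting are not given in the sources used here. The study removed a further 6-week library, which is not analysed here.

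The members and gene lists were chosen with earlier results of these data known. Nothing in the labels says more of the replicates than that they are separate pools, so p-values measure the spread between pools.

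From the deposited counts, genes were filtered by filterByExpr, normalized by TMM and tested with edgeR 4.0.16 (robust quasi-likelihood F test, the subset as the only term, Benjamini-Hochberg adjustment over 13348 genes, adjusted p under 0.05) in R 4.3.3. DESeq2 1.42.0, the tool of the study, was an alternative. Standard errors are the log2 fold change over the square root of F. Age and its interaction with the subset were further models. Log2 CPM used a prior count of 2. Of 24061 symbols, 22757 matched GENCODE M21 directly and 970 through a RefSeq synonym. A count of 0 allows up to 3 counts, and intervals on counts cover counting error only.

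All members were named in every library. Of each list, the called genes and those with the largest fitted rise and fall were named, and any others were picked with their values in view. For *Ctsl*, the member with the smallest p, the 5 most correlated genes were named. Other settings were total library size, DESeq2 size factors, a minimum of 10 counts in all libraries or no filter, terms for age or for the replicate number, the 10-week mice only, leaving out ribosomal, small and mitochondrial RNA genes, subtracting the olfactory receptor background, and leaving out each library.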

Additional observations from a re-analysis of the deposited data

How the results depend on the processing

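The count of 1 protease gene called higher moved to 3 with DESeq2 and with the replicate block, and to 2 without the filter on low counts. The share of all genes called higher was 0.45% in the main fit, 1.65% with DESeq2, 1.16% with the block and 0.78% without the filter. The count fell to 0 in the 10-week libraries alone (0.169% of all genes) and without both libraries rich in olfactory receptor counts (0.0243%). It was also 0 under an adjusted p under 0.01 with a log2 fold change above 1 and below 10 (0.112% of all genes in either direction). With each library left out it ran from 0 (Lyve-1- replicate 3, 0.125% of all genes, and Lyve-1+ replicate 1, 0.246%) to 2 (Lyve-1- replicate 2, 0.509%). The count called lower was 0 in each setting. The median log2 fold change of the 10 genes fell from 0.65 to 0.32 in the 10-week libraries alone and 0.33 without both olfactory-rich libraries, and ran from 0.34 (without Lyve-1- replicate 1) to 0.62 with each library left out.

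*Ctsz*, at 0.0091 in the main analysis, turned to -0.025 under DESeq2 and under its size factors, -0.056 under total size, -0.0083 without the filter, -0.0089 with at least 10 counts, -0.013 without RNA genes, -0.014 with the background subtracted, -0.084 in the 10-week libraries, -0.15 without both olfactory-rich libraries, and between -0.072 and 0.13 with each library left out. *Ctsh* turned to 0.013 at 10 weeks and ran from -0.25 to 0.023 with each library left out, *Ctss* turned to 0.028 at 10 weeks and 0.020 without both olfactory-rich libraries and ran from -0.28 to 0.080, and *Ctsa* turned to -0.055 without both. The causes were not tested.

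Between same-numbered libraries, deviations from the subset means had correlations of -0.046, -0.0018 and -0.15 over 13348 genes. Between libraries with different numbers they ran from -0.10 to 0.16. These values cannot decide whether both subsets of a number came from the same mice, since noise in genes with few counts also pulls them toward 0. The labels do not say so either. With the number as a block, *Ctsl*, *Ctsb* and *Ctsd* had edgeR adjusted p-values of 0.000478, 0.00207 and 0.0309. *Ctsk* could not be fitted with at least 10 counts in every library. The age and interaction counts were 0 in all 10 and 6 alternatives. Leaving libraries out leaves fewer degrees of freedom. The lowest count of any of the 10 genes was 4, that of *Ctsk* in Lyve-1- replicate 1.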
